A study of Homo sapiens with 22 samples.

Results

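The genes described here are the zinc finger genes of human chromosome 19, measured by RNA-seq in FIP1L1-depleted Kasumi-1 cells. They were chosen by name and position, not by their values: every protein-coding gene of the count table whose symbol begins with ZNF and a digit and which the GENCODE 29 annotation (GRCh38) places on chromosome 19. The rule found 249 genes among the 48162 gene identifiers of the table. Of these, 205 had enough reads to be tested, and 44 did not.

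Kasumi-1, a long-established line from human acute myeloid leukaemia, carries a fusion of RUNX1 with RUNX1T1. FIP1L1 belongs to the CPSF complex, which recognises and cuts pre-mRNA near the poly(A) signal so that the poly(A) tail can be added. Lentivirus carried a control shRNA, FIP1L1 shRNA 1 or FIP1L1 shRNA 2 into the cells, and puromycin kept those that had taken it up, so transduction and selection are common to all 3 groups. Each group had 4 RNA-seq libraries, described by the submitters as biological replicates. The sources used here do not say whether these were separate transductions, so the p-values cover the spread between these libraries only.

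Most chromosome 19 ZNF genes encode C2H2 zinc finger proteins, in which an array of fingers reads a DNA sequence. Many also carry a KRAB domain, which recruits TRIM28 and, through it, the H3K9 methyltransferase SETDB1, HP1 proteins and the NuRD complex to silence the bound site. The genes arose by repeated tandem duplication, lie in clusters, and many silence transposable elements.

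Total counts ran from 12236937 to 20388437 per library. Levels are in CPM, read counts scaled to a common library size after TMM adjustment. FIP1L1 fell from 41.4 ± 2.27 CPM (SD, n = 4) in the control to 15.4 ± 1.55 with shRNA 1 and 19.6 ± 0.788 with shRNA 2, which is 37.1% and 47.4% of the control in the fit. The myeloid markers KIT, CD34, CD33, MPO, RUNX1 and RUNX1T1 were detected in every group, while HBB and MS4A1 were at 0 in every library. CD34 was between 220.2 and 298.3 CPM in the control, between 43.7 and 55.2 with shRNA 1 and between 166.3 and 188.7 with shRNA 2, so the cells of the 3 groups also differed in markers of their state. The part of that difference in the values below was not tested.

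With shRNA 1, far more chromosome 19 ZNF genes rose than fell. Against the control, 89 of the 205 tested genes rose (43.4%) and 15 fell (7.32%), and 101 did not pass the test (edgeR quasi-likelihood F test, Benjamini-Hochberg adjusted p under 0.05 over all tested genes). Over all 15834 tested genes, 28.6% rose and 28.7% fell. The median log2 change of the ZNF genes was 0.34, against 0.02 over all tested genes. Rises of at least 2-fold were found in 22 ZNF genes (10.7%; 10.4% of all tested genes), and no ZNF gene fell 2-fold (8.29% of all tested genes).

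With shRNA 2, the rises and falls were balanced. Against the same control libraries, 40 ZNF genes rose (19.5%; 24.7% of all tested genes) and 39 fell (19%; 25.3% of all tested genes), and 126 did not pass. The median log2 change was -0.02. At least 2-fold changes were rarer than among all genes: 4 genes rose that far (1.95%; 6.98% of all tested genes) and 5 fell that far (2.44%; 6.35% of all tested genes).

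The direct comparison of the shRNAs tests whether their effects differ, because the control cancels. With shRNA 2, 93 ZNF genes were lower than with shRNA 1 (45.4%; 29.4% of all tested genes) and 19 were higher (9.27%; 29.3% of all tested genes). The median log2 difference was -0.29. Of these, 23 were at least 2-fold lower (11.2%; 10.3% of all tested genes) and 2, ZNF850 and ZNF551, at least 2-fold higher (0.976%; 8.78% of all tested genes).

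**Figure D1:**
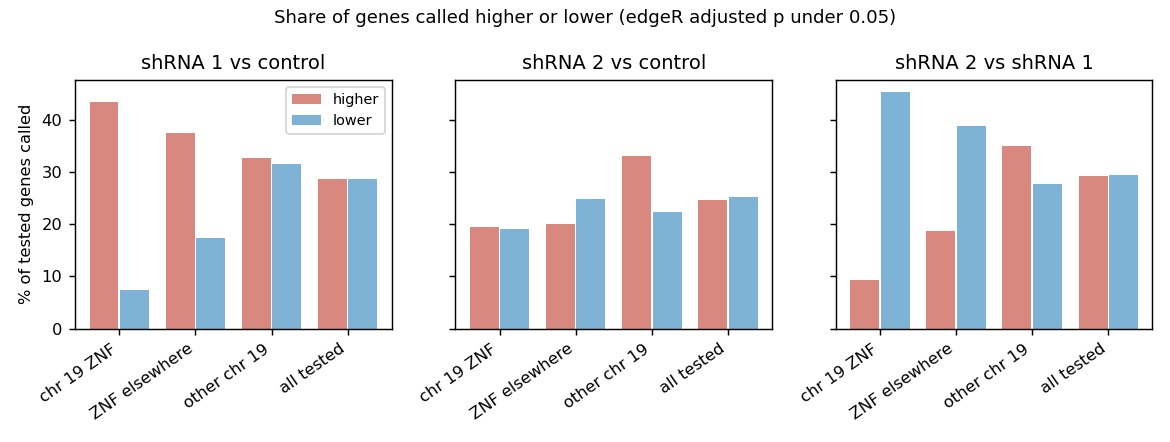
Share of tested genes (y axis, percent) called higher (red) or lower (blue) in the 3 comparisons, for the 205 chromosome 19 ZNF genes, 214 ZNF genes of other chromosomes, 791 other chromosome 19 genes and all 15834 tested genes. With shRNA 1, 43.4% of the chromosome 19 ZNF genes were higher and 7.32% lower.

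Single libraries showed the same. The summed level of the ZNF genes was between 3497 and 3585 CPM in the 4 control libraries (3536 ± 36.3, SD, n = 4) and between 3395 and 3543 CPM with shRNA 2 (3459 ± 62.3). With shRNA 1 the sums were 4504, 4467, 4091 and 3963 CPM in replicates 1 to 4 (4256 ± 270.2). All 4 shRNA 1 libraries lay above all other libraries, and replicates 1 and 2 lay above replicates 3 and 4. The log2 deviation of the median ZNF gene from the control mean followed the same order within shRNA 1, at 0.38, 0.39, 0.25 and 0.19. With only replicates 1 and 2 of shRNA 1 in the fit, 100 ZNF genes rose and 11 fell, and with only replicates 3 and 4, 75 rose and 18 fell. The shares of all tested genes in these fits are not given here. This split of the libraries was made after their values were seen, and it was not particular to the ZNF genes. Over genes of the whole table that were not at low counts, the chi-square per degree of freedom between shRNA 1 libraries was 15.2 to 32.6 across the split, 11.8 between replicates 1 and 2 and 4.12 between replicates 3 and 4, against 3.77 to 7.9 between control libraries. The median deviation of the other chromosome 19 genes ran the opposite way, at -0.09, -0.03, 0.09 and 0.15 in shRNA 1 replicates 1 to 4, and that of ZNF genes elsewhere was 0.19, 0.17, 0.06 and 0.05.

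In 77 ZNF genes all shRNA 1 libraries lay above all control libraries (37.6%; 23.7% of all tested genes), and in 11 all lay below (5.37%; 24.6% of all tested genes). With shRNA 2, 44 genes lay wholly above the control (21.5%; 25.0% of all tested genes) and 34 wholly below (16.6%; 25.2% of all tested genes).

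**Figure D2:**
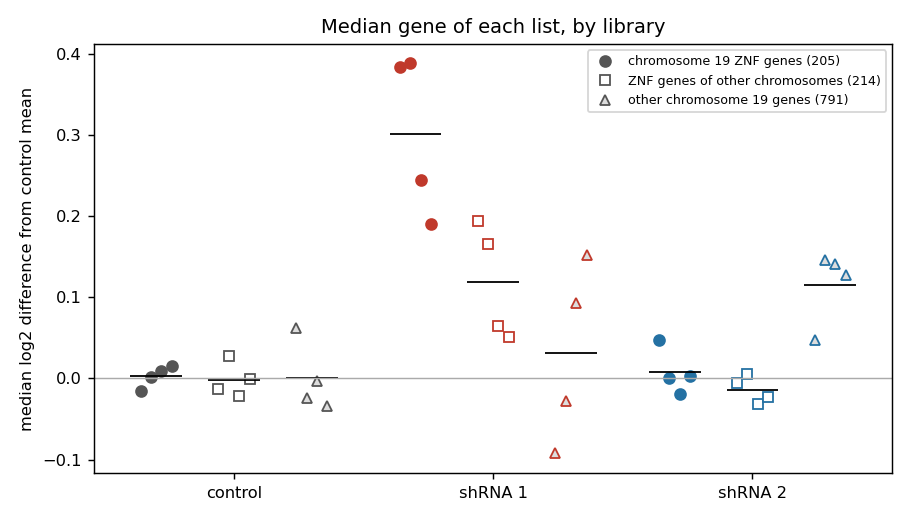
Median log2 difference from the control mean (y axis) in each of the 12 libraries, for chromosome 19 ZNF genes (filled circles), ZNF genes of other chromosomes (open squares) and other chromosome 19 genes (triangles); short lines are group means. The ZNF circles sit at 0.19 to 0.39 in the shRNA 1 libraries and near 0 in the others.

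ZNF genes elsewhere in the genome moved the same way in smaller shares. Of 214 tested ZNF genes on other chromosomes, 80 rose with shRNA 1 (37.4%) and 37 fell (17.3%), with a median log2 change of 0.14. The other protein-coding genes of chromosome 19 were close to balance, with 258 of 791 higher (32.6%) and 249 lower (31.5%) and a median of 0.07. ZNF genes are AT-rich and weakly expressed: their median exonic GC content was 42.4%, against 49.0% over tested protein-coding genes. Of 764 other protein-coding genes within the interquartile range of the ZNF genes' GC content (39.8% to 46.2%) and mean level (6.05 to 23.8 CPM), 27.7% rose with shRNA 1, 29.6% fell, and the median log2 change was 0.00. With the trend of log2 change on GC content taken out, 100 ZNF genes rose and 12 fell with shRNA 1. The shares of all tested genes in that fit are not given here.

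Per length of exon, the ZNF genes were low: in the control their median level was 2.39 RPKM (CPM per kilobase of exon), against 5.59 over tested protein-coding genes. ZNF146 (28.8 ± 1.6 RPKM in the control), ZNF121 (23.1 ± 0.99) and ZNF581 (23.0 ± 1.5) were the highest, and all 3 lack a KRAB box in the annotated coding sequence. ZNF121 and ZNF581 did not differ beyond their SDs. At the other end, 20 of the 44 untested genes had 0 reads in all 12 libraries, and ZNF350, a KRAB repressor that partners BRCA1, stood at 0 to 0.368 CPM.

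Both hairpins moved 45 ZNF genes past the test. In 29 they moved the gene up (14.1%; 12.6% of all tested genes), a share close to that of all genes. Both moved 5 down (2.44%; 12.8% of all tested genes), and 11 moved in opposite directions (5.37%; 7.86% of all tested genes). The 2 comparisons share their control libraries, so these counts are not independent of each other.

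**Figure D3:**
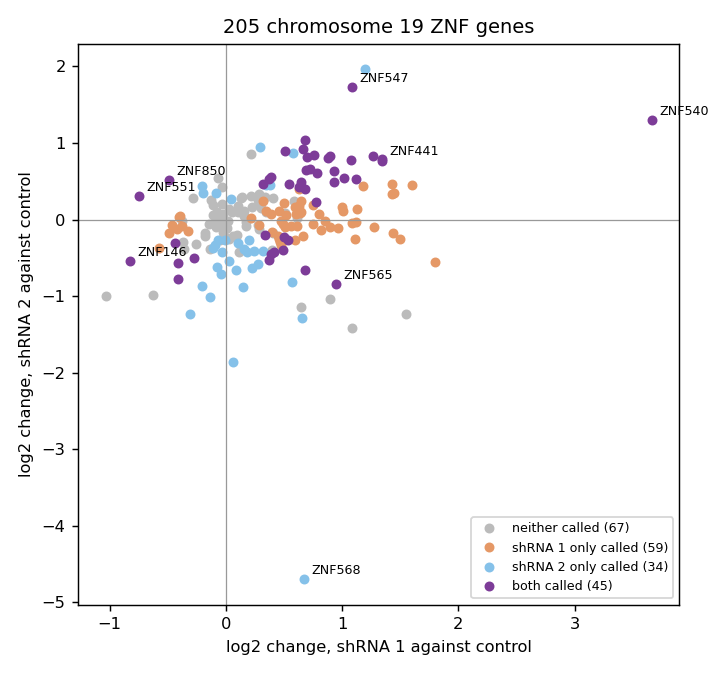
Fitted log2 change with shRNA 2 (y axis) against shRNA 1 (x axis) for each of the 205 tested ZNF genes, coloured by which comparison passed the test; both axes share the control libraries. Of the 45 genes called with both, 29 lie in the upper right; the position of ZNF568 rests on almost no reads with shRNA 2.

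A group of 6 ZNF genes led those that rose with both hairpins. ZNF540, a KRAB zinc finger gene of 17 fingers, was almost silent in the control, at 0.598, 0.854, 0.207 and 0.393 CPM. It reached 8.57, 4.09, 6.36 and 6.58 CPM with shRNA 1, and 1.38, 1.70, 1.31 and 0.464 CPM with shRNA 2. The shRNA 1 libraries lay above all others, while the shRNA 2 libraries overlapped the control. The log2 change was 3.67 ± 0.40 (SE; edgeR adjusted p = 4.18e-08) with shRNA 1 and 1.30 ± 0.44 (adjusted p = 0.0164) with shRNA 2, and the second call was lost without control replicate 3 (adjusted p = 0.0638), control replicate 4 (0.0542) or shRNA 2 replicate 2 (0.0608). An exon of ZNF540 overlaps ZFP30 on the other strand, and whether the counting used strand is not stated in the sources used here, so reads of this pair cannot be told apart with certainty.

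ZNF547 was at 2.47, 1.20, 1.80 and 2.02 CPM in the control, 3.94, 3.73, 4.26 and 4.14 with shRNA 1, and 5.83, 6.40, 7.40 and 5.37 with shRNA 2. The 3 groups did not overlap, and shRNA 2 gave the highest level. It rose 2.13-fold with shRNA 1 (edgeR adjusted p = 0.000393) and 3.31-fold with shRNA 2 (adjusted p = 1.47e-06). ZNF547 shares exonic sequence with TRAPPC2B on the same strand, which makes its count uncertain.

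ZNF44 stood at 13.9, 16.6, 13.4 and 20.8 CPM in the control, 36.1, 31.3, 26.7 and 26.4 with shRNA 1, and 32.1, 31.2, 24.9 and 27.5 with shRNA 2. Both knockdown groups lay wholly above the control and overlapped each other. The rise was 1.86-fold with shRNA 1 (edgeR adjusted p = 6.99e-06) and 1.78-fold with shRNA 2 (adjusted p = 2.4e-05). Its neighbour ZNF442 went from 2.24, 2.65, 1.93 and 3.25 CPM to 4.97, 5.43, 4.03 and 4.14 with shRNA 1 and to 3.34, 5.27, 3.78 and 5.30 with shRNA 2. Again both knockdown groups were above every control library, by 1.84-fold (adjusted p = 0.00354) and 1.74-fold (adjusted p = 0.00858). ZNF699 rose 2.4-fold with shRNA 1 and 1.78-fold with shRNA 2, and ZNF345, which has no KRAB box, 2.54-fold and 1.73-fold. The rise of ZNF345 with shRNA 2 was lost without control replicate 1 (edgeR adjusted p = 0.0647). That of ZNF699 was lost without control replicate 3 (adjusted p = 0.0575), control replicate 4 (0.0522) or shRNA 2 replicate 1 (0.0517).

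Only 5 ZNF genes fell with both hairpins. ZNF146, the highest member per length of exon and one made almost entirely of fingers, was at 112, 118, 128 and 120 CPM in the control. It fell to 72.6, 67.4, 66.0 and 63.5 CPM with shRNA 1 and to 85.8, 81.6, 80.8 and 80.0 CPM with shRNA 2. No group overlapped another, and the levels were 56.4% and 68.7% of the control (edgeR adjusted p = 2.75e-10 and 3.33e-07). ZNF146 overlaps ZNF565 on the other strand.

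ZNF566 was at 25.3, 24.6, 28 and 24.3 CPM in the control, 20.7, 23.6, 17 and 15.1 with shRNA 1, and 15.6, 14.2, 14.2 and 15.8 with shRNA 2. All knockdown libraries were below all control libraries. The fall with shRNA 1 was lost with only shRNA 1 replicates 1 and 2 (edgeR adjusted p = 0.161). ZNF584 fell to 75% of the control with shRNA 1 and 67.6% with shRNA 2, and ZNF628 to 73.8% and 80.7%. The fall of ZNF584 with shRNA 1 was lost with only shRNA 1 replicates 3 and 4 (edgeR adjusted p = 0.0561). ZNF480 fell to 82.6% and 70.9%, but the first of these calls was lost without shRNA 1 replicate 3 (edgeR adjusted p = 0.15) and under several other choices. The fall of ZNF628 with shRNA 2 was lost under 7 alternatives (edgeR adjusted p of 0.0532 to 0.204): without control replicate 1 (0.204) or 4 (0.0656), without shRNA 2 replicate 1 (0.1), 2 (0.11) or 3 (0.102), with the GC trend taken out (0.0532) and with no filter on low counts (0.0544).

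With shRNA 1 up and shRNA 2 down, 9 genes passed both tests (4.39%; 3.48% of all tested genes), a share close to that of all genes. The other way round there were 2 (0.976%; 4.38% of all tested genes). ZNF546, a KRAB gene of 22 fingers, was at 7.85, 8.37, 7.25 and 7.35 CPM in the control. It was at 16.5, 9.71, 13 and 10.1 CPM with shRNA 1 and at 5.78, 5.27, 4.93 and 3.31 with shRNA 2. The 3 groups did not overlap, and the shRNA 2 level was 0.394 times that of shRNA 1 (edgeR adjusted p = 2.24e-06). ZNF565 was at 2.28 to 3.29 CPM in the control, 4.08 to 6.80 with shRNA 1 and 0.994 to 2.72 with shRNA 2, and ZNF69 at 12.8 to 17.7, 15.9 to 24.9 and 11.2 to 12.7 CPM. Their differences between the hairpins passed the test (adjusted p = 1.25e-05 for ZNF565 and 1.24e-05 for ZNF69). The fall of ZNF565 with shRNA 2 was lost without control replicate 1 or shRNA 2 replicate 1, 3 or 4 (adjusted p of 0.0612 to 0.0797), and that of ZNF69 without control replicate 4 (0.0533). The rise of ZNF69 with shRNA 1 was lost without control replicate 3 (adjusted p = 0.0525) and with only shRNA 1 replicates 3 and 4 (0.157). With only those replicates the rise of ZNF565 with shRNA 1 was lost too (edgeR adjusted p = 0.0726).

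ZNF850 and ZNF551 were the 2 genes that fell with shRNA 1 and rose with shRNA 2. ZNF850 was at 26.8, 32.2, 34.8 and 34 CPM in the control, 25.8, 20.8, 22.8 and 21.6 with shRNA 1, and 45.2, 45.7, 47.8 and 44.3 with shRNA 2. ZNF551 was at 24.1, 26.1, 26.9 and 27.6 CPM in the control, 14.9, 15.6, 17 and 14.7 with shRNA 1, and 35.4, 31.7, 32.3 and 30.2 with shRNA 2. Every shRNA 1 library was below and every shRNA 2 library above the control range for both genes. The shRNA 2 level was 2.01 times that of shRNA 1 for ZNF850 and 2.08 times for ZNF551 (edgeR adjusted p = 4.78e-09 and 2.52e-09).

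**Figure D4:**
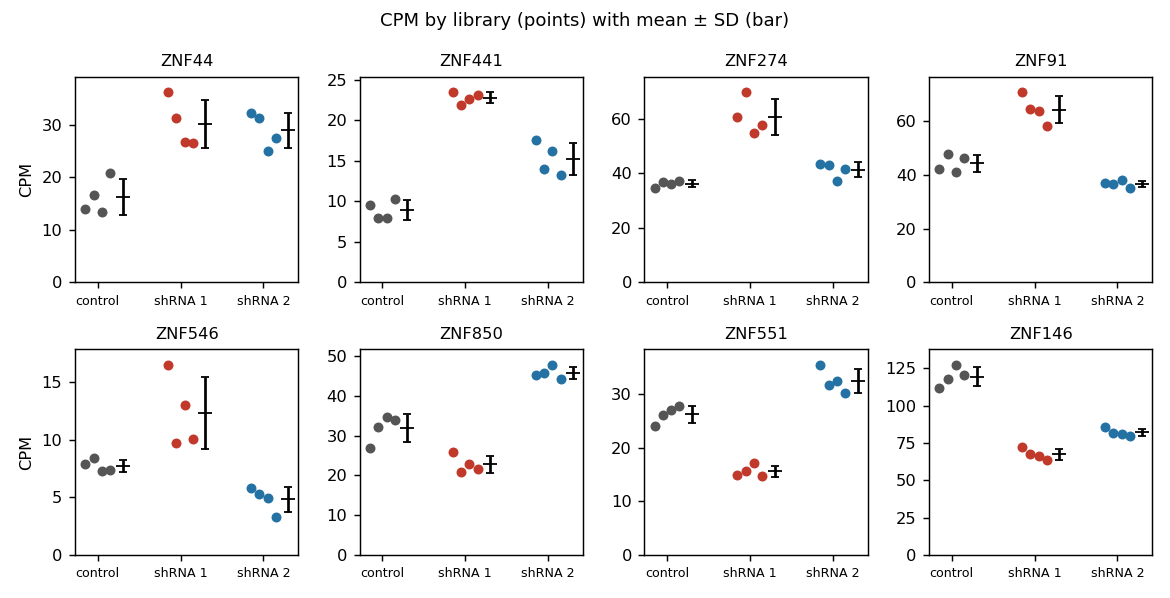
CPM (y axes, from 0) of 8 ZNF genes in each library (points) with the group mean ± SD (bars, n = 4). ZNF44 and ZNF441 rose with both hairpins, ZNF91 and ZNF546 moved in opposite directions, ZNF850 and ZNF551 moved the other way round, and ZNF146 fell with both.

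ZNF568, a KRAB gene at low level, was singled out after its values were seen. It stood at 1.34, 0.854, 1.1 and 0.449 CPM in the control and 0.914, 2.25, 1.23 and 1.51 CPM with shRNA 1. With shRNA 2 it was at 0.053 and 0.0567 CPM in replicates 1 and 2 and at 0 in replicates 3 and 4. Its fall passed the test (edgeR adjusted p = 2.43e-05), and no fold is given because almost no reads remained.

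Among ZNF genes with a known function, ZNF91 and ZNF93 silence retrotransposons of the SVA and LINE-1 families. ZNF91 stood at 42.3, 47.7, 41.3 and 46.3 CPM in the control, 70.8, 64.7, 63.8 and 58.4 with shRNA 1, and 37.0, 36.6, 38.2 and 35.3 with shRNA 2. The groups did not overlap: it rose 1.45-fold with shRNA 1 (edgeR adjusted p = 3.7e-06) and fell to 82.8% with shRNA 2 (adjusted p = 0.00714). The fall was lost once the GC trend was taken out (adjusted p = 0.0976). ZNF93 rose with both, from 27.4 to 31.6 CPM in the control to 33.1 to 44.4 with shRNA 1 and 39.1 to 42.8 with shRNA 2. Its rise with shRNA 1 was lost with only shRNA 1 replicates 3 and 4 (edgeR adjusted p = 0.0696).

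ZNF274, which brings SETDB1 to the 3' ends of zinc finger genes themselves, rose from 34.6, 36.9, 35.9 and 37.4 CPM to 60.6, 69.7, 54.8 and 57.6 CPM with shRNA 1. With shRNA 2 it was at 43.4, 42.9, 37.3 and 41.6 CPM. All shRNA 1 libraries were above all others. The rise was 1.68-fold with shRNA 1 (edgeR adjusted p = 8.63e-08), the change with shRNA 2 missed the threshold (log2 0.19 ± 0.09, adjusted p = 0.0703), and the 2 effects differed (adjusted p = 5.08e-06).

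ZNF304, a KRAB repressor, rose 1.29-fold and 1.44-fold with shRNA 1 and shRNA 2 (edgeR adjusted p = 0.0131 and 0.000921). Its rise with shRNA 1 was lost with only shRNA 1 replicates 3 and 4 (adjusted p = 0.052). ZNF224, a KRAB protein that binds WT1, rose 2.01-fold with shRNA 1 (adjusted p = 0.0041) and did not pass with shRNA 2 (adjusted p = 0.79). Its difference between the hairpins passed (adjusted p = 0.0076), though not without shRNA 1 replicate 2 (0.0588). ZNF331 had a log2 change of 0.35 ± 0.15 with shRNA 1 (adjusted p = 0.0542) and rose 1.37-fold with shRNA 2 (adjusted p = 0.0146), the latter not without shRNA 2 replicate 2 (0.0734). ZNF382 and ZNF420, a negative regulator of p53, passed no comparison: their log2 changes were -0.01 ± 0.14 and -0.05 ± 0.15 with shRNA 1 and -0.21 ± 0.14 and -0.27 ± 0.15 with shRNA 2. ZNF121 did not pass with shRNA 1, where its libraries spread from 126 to 212 CPM, and fell from 157 to 174 CPM in the control to 97.0 to 107 with shRNA 2. ZNF581, which overlaps ZNF580 and CCDC106 on its own strand, rose 1.41-fold with shRNA 1 and fell to 85.1% with shRNA 2; the fall was lost under 5 of the alternatives (edgeR adjusted p of 0.0515 to 0.0704).

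The ZNF genes lie in 20 blocks along chromosome 19, taking a gap of over 500000 bases as a border, and 225 of the 249 sit in the 8 blocks with more than 10 members. The rise with shRNA 1 was unevenly spread over them. Among these 8 blocks it ran from 25.9% of tested genes (block 18) to 69.6% (block 4), against 28.6% of all tested genes. In block 4 (11.5 to 12.6 Mb, GRCh38), 16 of 23 tested genes rose and 0 fell, with a median log2 change of 0.64. Block 6 (19.7 to 24.1 Mb), the pericentromeric cluster that holds ZNF91 and ZNF93, had 17 of 26 higher, 2 lower (ZNF66 and ZNF724) and a median of 0.51. In block 3 (8.5 to 9.8 Mb), 5 of 11 rose and 0 fell, but the other 6 had negative log2 changes that did not pass, and the median was -0.02. Beyond block 6 the shares were smaller in most blocks: 9 of 26 rose and 4 fell in block 10 (36.2 to 37.8 Mb), 6 of 19 and 1 in block 13, 7 of 27 and 3 in block 18, 5 of 12 and 1 in block 19, and 13 of 41 and 4 in block 20 (57.2 to 58.5 Mb).

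With shRNA 2, 24.7% of all tested genes rose and 25.3% fell, and the blocks stood on either side of these shares. In block 4, 10 of 23 rose (43.5%) and 2 fell (8.7%), with a median log2 change of 0.39. There 8 genes rose with both hairpins (34.8%; 12.6% of all tested genes): ZNF823, ZNF441, ZNF491, ZNF439, ZNF433, ZNF44, ZNF442 and ZNF443. In block 18 (51.6 to 53.6 Mb), 1 rose (3.7%) and 8 fell (29.6%), with a median of -0.17. Block 6 had 6 higher (23.1%) and 3 lower (11.5%; median -0.02). Block 10 had 4 (15.4%) and 6 (23.1%; median -0.17), and block 20 had 10 (24.4%) and 9 (22%; median 0.13). The falls in blocks 18 and 10 and both shares in block 20 were near those of all tested genes. The differences between blocks were not tested.

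**Figure D5:**
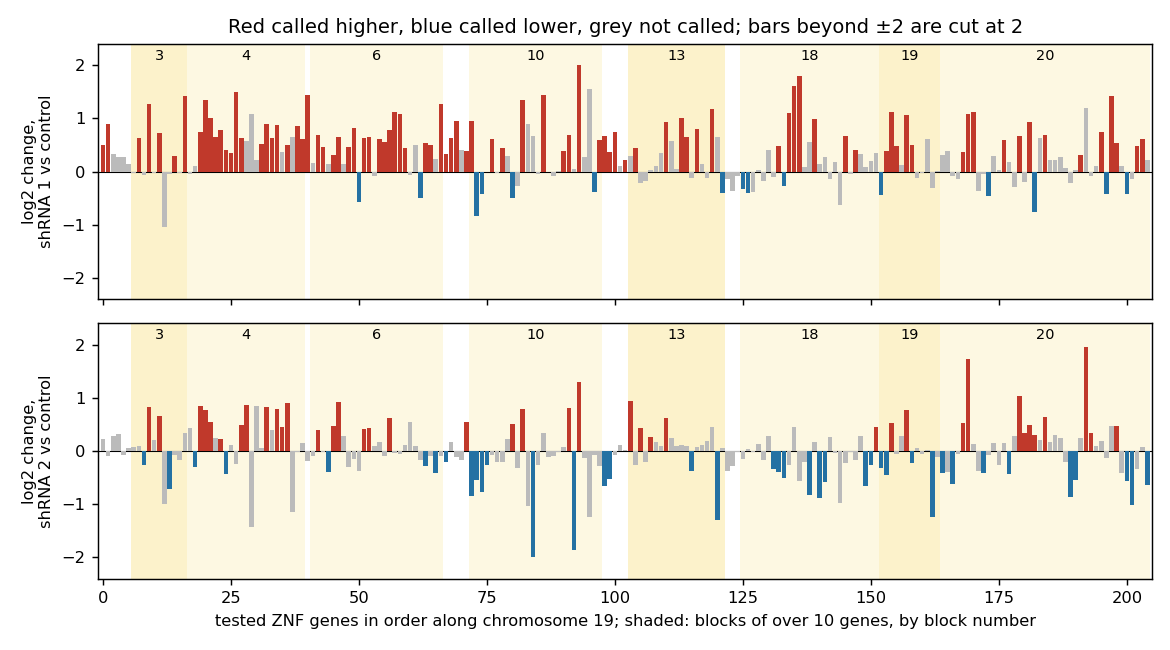
Log2 change against the control (y axes) of the 205 tested ZNF genes in their order along chromosome 19 (x axis, rank), with shRNA 1 above and shRNA 2 below. Red genes were called higher and blue ones lower. With shRNA 1, 16 of 23 genes in block 4 and 17 of 26 in block 6 are red, and with shRNA 2 the same blocks hold 10 and 6.

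Genes between the ZNF genes did not all follow. Of the other protein-coding genes, 4 tested ones lay within block 4: 0 rose and 1 fell with shRNA 1, and 0 rose and 2 fell with shRNA 2. Their median log2 changes were 0.27 and -0.61. Of 7 in block 13, 3 rose and 2 fell with shRNA 1. In block 2, 4 of 5 rose and 0 fell, and in block 19, 2 of 11 rose and 3 fell. These are few genes per block. Of all tested genes, 28.6% rose and 28.7% fell with shRNA 1, and 24.7% rose and 25.3% fell with shRNA 2.

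ZNF441, ZNF44 and ZNF823, 3 of the 8 block 4 genes that rose with both hairpins, have similar promoters. Of the block's other promoters, only that of ZNF442, which also rose with both hairpins, was aligned. Its identity was 81.2% with ZNF44, 79.5% with ZNF441 and 82.3% with ZNF823. No promoter of a gene that did not rise was aligned, so the likeness is not shown to be particular to genes that rose. The upstream sequences are shown because they carry the same CCAAT box, in capitals, in a shared stretch. A CCAAT box was not particular to them: on either strand, all RefSeq promoters of block 4 but those of ZNF653 and ZNF799 held one. That of ZNF69, which moved in opposite directions, did too. ZNF441 and ZNF823 were added to ZNF44 after their values were seen. The sequences are the RefSeq promoter windows (GRCh38.p14), limited to bases upstream of the GENCODE gene start, and read 5′ to 3′.
ZNF441 (chr19:11766750-11766999, plus strand): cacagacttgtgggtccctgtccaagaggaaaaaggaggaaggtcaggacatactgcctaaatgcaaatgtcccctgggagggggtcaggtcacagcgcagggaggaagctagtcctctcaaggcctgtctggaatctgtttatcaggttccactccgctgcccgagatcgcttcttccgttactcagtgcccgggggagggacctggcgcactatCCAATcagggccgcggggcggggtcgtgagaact
ZNF44 (chr19:12294888-12295133, minus strand): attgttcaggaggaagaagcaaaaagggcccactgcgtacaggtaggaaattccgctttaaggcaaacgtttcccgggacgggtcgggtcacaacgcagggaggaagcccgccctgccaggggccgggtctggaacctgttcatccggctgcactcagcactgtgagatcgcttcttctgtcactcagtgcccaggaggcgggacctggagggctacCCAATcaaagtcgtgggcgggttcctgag
ZNF823 (chr19:11739010-11739196, minus strand): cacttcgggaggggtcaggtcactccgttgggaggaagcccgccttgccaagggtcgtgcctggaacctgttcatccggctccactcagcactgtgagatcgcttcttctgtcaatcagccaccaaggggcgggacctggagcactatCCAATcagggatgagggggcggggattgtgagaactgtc
Over the aligned bases of the whole 250-base windows, identity was 79.1% between ZNF44 and ZNF441, 86.2% between ZNF44 and ZNF823, and 82.5% between ZNF441 and ZNF823. ZNF441 rose from 9.49, 7.94, 7.94 and 10.3 CPM to 23.4, 21.9, 22.6 and 23.1 with shRNA 1 and to 17.6, 14.0, 16.2 and 13.2 with shRNA 2, with no overlap between the groups. ZNF823 rose from 6.88, 4.95, 6.49 and 8.75 CPM to 10.4, 12.8, 11.1 and 11.8 with shRNA 1 and to 14.1, 12.1, 10.2 and 12.4 with shRNA 2. In it the knockdown groups overlapped each other and not the control.

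Many block 6 promoters share a sequence that also occurs outside the block. Their most widely shared 12-mer, CTGTCACTCAGG, was in 18 of 29 block 6 promoters and in 35 of all 27305 RefSeq promoters (0.128%), 24 of them upstream of chromosome 19 ZNF genes. It is shown in capitals in the 2 retrotransposon silencers, whose levels parted with shRNA 2.
ZNF91 (chr19:23395561-23395721, minus strand): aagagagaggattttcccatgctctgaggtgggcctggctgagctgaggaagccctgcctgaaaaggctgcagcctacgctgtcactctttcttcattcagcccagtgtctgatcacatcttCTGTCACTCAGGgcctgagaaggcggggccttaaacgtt
ZNF93 (chr19:19900696-19900912, plus strand): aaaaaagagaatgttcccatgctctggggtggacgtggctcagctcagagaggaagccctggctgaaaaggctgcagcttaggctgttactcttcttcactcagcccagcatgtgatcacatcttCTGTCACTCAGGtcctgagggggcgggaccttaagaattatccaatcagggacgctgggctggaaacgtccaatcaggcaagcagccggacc
Of the 26 tested block 6 genes, those without a matched RefSeq promoter are left out here. Among the rest, 9 of 14 with the 12-mer and 6 of 9 without it rose with shRNA 1, so its presence did not separate the genes that rose. The 12-mer was picked from the promoters alone, as the one shared by most genes of the block.

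RefSeq promoters matched 217 of the 249 genes. Searched on both strands of the 250 bases, the TATA element TATAAA was in 1.84% of them and 11.2% of all promoters, and the CCAAT box in 52.1% and 33.0%. The GC box GGGCGG was in 65.4% and 42.2%, and the ETS core CCGGAA in 39.6% and 14.8%. The CCAAT box stood in 65.4% of the 81 matched genes that rose with shRNA 1, in 50% of the 14 that fell and in 38.6% of the 88 not called. Every block 6 promoter held the box, and so did all block 4 promoters but those of ZNF653 and ZNF799. Of the blocks with more than 10 members, blocks 4 and 6 also had the largest shares rising with shRNA 1 (69.6% and 65.4%). Within blocks 4 and 6 the box and the block therefore cannot be told apart. In the other blocks some promoters held the box and others did not, but calls by box were not compared there. Promoters of a block share sequence and are not independent of each other, and a match is no evidence of a bound factor.

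At the other end of the gene, where FIP1L1 acts, poly(A) signals were read from the annotated transcript ends, which are not ends measured in these cells. AATAAA lay in the last 50 bases of 117 of 227 ZNF transcripts with a usable end (51.5%), against 62.4% of 17973 protein-coding transcripts and 54.5% of those of ZNF genes elsewhere. Windows of at most 30 bases are shown (GRCh38, transcript strand, signal in capitals) for 2 genes that rose with both hairpins, ZNF146 that fell with both, and 2 that moved in opposite directions.
ZNF540 (chr19:37614064-37614093, plus strand): aactgtgagaAATAAAcctcagttgtttat
ZNF44 (chr19:12272330-12272359, minus strand): acttgaaagaAATAAAtcctgtgaatgtaa
ZNF146 (chr19:36238734-36238763, plus strand): aatctattttATTAAAatttaaaaggacag
ZNF546 (chr19:40021008-40021037, plus strand): aatatacttcAATAAAtatccttgtctgtg
ZNF850 (chr19:36743486-36743515, minus strand): attatttgtaAATAAAagtatttgcctatt
ZNF146 ends with the variant ATTAAA and the other 4 shown hold AATAAA, but both signals occurred in genes that rose and in genes that fell. The other 4 genes that fell with both hairpins, ZNF566, ZNF584, ZNF628 and ZNF480, hold AATAAA, and ZNF823, which rose with both, ends with ATTAAA. Over the tested genes, 47 of 100 with AATAAA rose and 10 fell with shRNA 1, and of 94 without it 38 rose and 4 fell. The median log2 changes were 0.34 and 0.33. With shRNA 2, 23 rose and 18 fell with AATAAA, and 16 and 18 without it. Called with both hairpins, 17 rose, 4 fell and 10 moved in opposite directions with AATAAA, and 12, 1 and 1 without it. The shares moving in opposite directions were 10% and 1.06%, against 7.86% of all tested genes. These differences were not tested.

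The proteins differ widely. In the translated annotation, 212 of 247 genes had a KRAB box and 35 had none, and the number of C2H2 fingers ran from 0 to 36 (ZNF208) with a median of 12. Of 172 tested KRAB genes, 76 rose and 13 fell with shRNA 1 (median log2 0.38), and of 32 without KRAB 12 rose and 2 fell (median 0.12). With shRNA 2, 32 and 32 KRAB genes and 8 and 7 of the others rose and fell. The number of fingers showed no trend with the log2 change (Spearman rho 0.00 with shRNA 1 and 0.03 with shRNA 2, across 204 genes that share the same libraries). Exon length went with the shRNA 2 change (rho -0.23 across 205 genes), and mean level with the shRNA 1 change (rho -0.21). Among the tertile of genes with the lowest mean level (0.527 to 8.28 CPM), 25 of 68 rose with shRNA 1 and 2 fell, and among the highest (19.9 to 143.8 CPM) 33 of 69 rose and 7 fell.

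Reads shared with another gene touch many members. An exon of 80 of the 249 genes is overlapped by a gene on the other strand, and an exon of 84 by another gene on the same strand. Genes with same-strand overlap were not set apart in the counts below. Of the 137 tested genes without such an overlap, 61 rose and 10 fell with shRNA 1 (median log2 0.39), and of the 68 with one, 28 rose and 5 fell (median 0.28). Near-identical stretches, at 98% identity over at least 100 bases, were sought between 1 annotated transcript per gene, and other transcripts were not compared. They were limited to ZNF177 with ZNF559-ZNF177, ZNF155 with ZNF222, and ZNF419 with ZNF773. ZNF177 and ZNF559-ZNF177 end beside each other on the same strand, so their match need not be a copy.

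Among the partners of KRAB zinc finger proteins, more genes fell than rose. Of 24 tested genes of the silencing machinery, 5 rose (20.8%; 28.6% of all tested genes) and 16 fell (66.7%; 28.7% of all) with shRNA 1. With shRNA 2, 5 rose (20.8%; 24.7% of all) and 9 fell (37.5%; 25.3% of all), and 9 fell with both (37.5%; 12.8% of all). The 5 that rose with shRNA 1 were ATF7IP, a partner of SETDB1, ATRX, a chromatin remodeller, MORC3, MPHOSPH8, a subunit of the HUSH complex, and CBX1. TRIM28, the corepressor itself, was at 807 ± 46.5 CPM in the control, 775 ± 29.3 with shRNA 1 and 799 ± 22.3 with shRNA 2 and did not pass (edgeR adjusted p = 0.417 and 0.868). SETDB1 fell from 50.2 ± 1.01 CPM to 37.3 ± 2.56 with shRNA 1 (adjusted p = 5.08e-05) and was at 52.3 ± 2.98 with shRNA 2 (adjusted p = 0.569). It overlaps CERS2 on the other strand. CBX5 and CBX1, the genes of HP1 alpha and HP1 beta, were singled out after their values were seen. CBX5 fell from 257.9 ± 16.2 CPM to 86.9 ± 12.3 with shRNA 1 and 30.1 ± 2.2 with shRNA 2. CBX1 rose from 101.9 ± 6.76 CPM to 161.9 ± 17.3 with shRNA 1 (edgeR adjusted p = 5.56e-08) and to 160.1 ± 5.74 with shRNA 2 (adjusted p = 1.23e-07). Whether these levels bear on the ZNF genes was not tested.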

How the data were processed

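Gene counts of 12 RNA-seq libraries were analysed as deposited: whole-number read counts per Ensembl gene that the authors made. The submitters' processing notes name STAR 2.7.3a, cutadapt 2.6 and the build hg19 for the series. The counting tool and its strand setting: not given in the sources used here. Per the labels' protocols, libraries came from a NEBNext Ultra kit. Positions, exon lengths and coding sequences came from GENCODE 29 (GRCh38), joined by gene identifier, and promoters from RefSeq (GRCh38.p14). KRAB boxes (at least 12 of 34 consensus residues) and fingers were read from GENCODE coding sequence in place of RefSeq proteins. The 3'READS table of 10 further samples, in hg19 positions, is not analysed here.

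All 12 libraries were fitted together in edgeR 4.0.16 (R 4.3.3, TMM scaling, low-count filter, robust quasi-likelihood F test, group as the only term), with Benjamini-Hochberg adjustment over all tested genes and a threshold of 0.05. Rises and falls are relative to TMM scaling. The fit was tested on simulated data. Alternatives included DESeq2 1.42.0, other filters and scaling, a replicate block, leaving out each library, and, added after the values were seen, a GC correction and fits with 2 of the 4 shRNA 1 libraries. Same-numbered libraries of different groups were not correlated (r -0.0369 to 0.0893 over 12 pairs), so they were not treated as pairs. Genes were named by rank among those called with both hairpins or in opposite directions, by control level and from a list of 9 known genes. The members, lists and rules were chosen with earlier results of these data known.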

Additional observations from a re-analysis of the deposited data

Results flagged for a closer look

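Among the named ZNF genes, 3 groups held 1 library far from the other 3, as chance alone gives in about 1 in 20 groups. ZNF628 was at 23.1 CPM in shRNA 2 replicate 4, with the others at 18.2 to 18.5. ZNF93 was at 44.4 CPM in shRNA 1 replicate 1, with the others at 33.1 to 34.8. ZNF382 was at 10.9 CPM in control replicate 4, with the others at 14.6 to 15.1.

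In 14 named ZNF genes the effects of the 2 hairpins differed by the direct edgeR comparison of shRNA 2 with shRNA 1. The log2 difference was negative in ZNF540 (-2.37), ZNF565 (-1.80), ZNF546 (-1.34), ZNF224 (-0.90), ZNF69 (-0.84), ZNF91 (-0.81), ZNF581 (-0.73), ZNF121 (-0.67), ZNF274 (-0.56) and ZNF566 (-0.36). It was positive in ZNF551 (1.06), ZNF850 (1.01), ZNF547 (0.64) and ZNF146 (0.28). Some of these differences did not hold under every alternative. That of ZNF566 lost its edgeR call with the GC trend taken out (adjusted p = 0.187), without shRNA 1 replicate 2 (0.0987), without shRNA 2 replicate 2 (0.0523) or 3 (0.0524), and with only shRNA 1 replicates 3 and 4 (0.517). That of ZNF547 was lost without shRNA 2 replicate 3 (edgeR adjusted p = 0.0547) and with only shRNA 1 replicates 3 and 4 (0.052), and that of ZNF224 without shRNA 1 replicate 2 (0.0588).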

How the results depend on the processing

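The excess of rises over falls with shRNA 1 held under every alternative tried. The counts are given without the shares of all tested genes under each alternative. Leaving out each library in turn gave 84 to 94 higher and 11 to 17 lower with shRNA 1, 3 to 6 falling with both hairpins, 10 to 22 higher with shRNA 2 than with shRNA 1, and a median log2 difference between the hairpins of -0.329 to -0.251. With the replicate block, which the labels do not justify as a pairing, 89 rose and 14 fell with shRNA 1, 39 and 39 with shRNA 2, and 12 moved in opposite directions. The near-zero shRNA 2 median was 0.0297 with at least 1 CPM in 4 libraries, 0.0282 with only the 2 groups compared and 0.045 with the GC trend taken out. With only shRNA 1 replicates 1 and 2, the medians were 0.457 with shRNA 1 and -0.354 between the hairpins, 12 genes were higher with shRNA 2 than with shRNA 1, 3 fell with both and 19 moved in opposite directions. With only replicates 3 and 4, the median between the hairpins was -0.207 and 8 fell with both. Among genes with no exon overlapped on the other strand, fewer by construction, 23 fell with shRNA 2, 61 were lower with shRNA 2 than with shRNA 1, 19 rose with both and 1 fell with both. Of 264 values over the ZNF genes, 244 stayed within their limits.

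Named genes reversed sign only where the change with all libraries was not called. Leaving out each library, the log2 difference between the hairpins ran from -0.115 to 0.0382 in ZNF44 and from -0.171 to 0.0404 in ZNF442, and the shRNA 1 change from -0.203 to 0.0563 in ZNF121, -0.122 to 0.053 in ZNF382 and -0.134 to 0.0312 in ZNF420. With only shRNA 1 replicates 3 and 4 the difference was 0.126 in ZNF44, 0.113 in ZNF442, 0.0355 in ZNF480 and -0.0755 in ZNF331, and the shRNA 1 change of ZNF382 was 0.00147 (0.00556 with the GC trend taken out). With only replicates 1 and 2 the shRNA 1 change was 0.0986 in ZNF420 and 0.213 in ZNF121, the latter then called (edgeR adjusted p = 0.0162). In these the cause was not tested. Of 1638 values of named genes, 48 lost and 27 gained a call.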
